A study of Mus musculus with 8 samples.

Results

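The genes described here are Gad1, Gad2, Gabra2, Gabra4, Gabrb1 and Gabrb2, 6 genes of GABA synthesis and of the GABA-A receptor. They were read from FLAG-Ago HITS-CLIP of mouse forebrain, in which RNA crosslinked by UV light to a tagged Argonaute protein is pulled down and sequenced, so that clusters of reads mark where Argonaute sat. A cluster was counted for a gene where the 3' UTR, CDS, 5' UTR or intron column of the deposited table names that gene exactly, which gave 87 of the 70142 clusters and 2039 of the 1834586 reads. The working name of the group also mentions GABA uptake, but none of these 6 genes is a transporter. The 5 Flag-Ago2 libraries came from mice with the Rosa-Stopfl/fl-Flag-Ago2 allele and Camk2a-cre, in which Cre driven by the Camk2a promoter releases a FLAG-tagged Ago2 at the ROSA26 locus. The 3 control libraries came from Rosa-Stopfl/fl-Flag-Ago2 mice, which carry the same silent allele without Cre. All mice were aged 8 to 14 weeks, and the libraries come from 3 experiments. The table holds a single read count per cluster and 0 columns for a single library, so no value below has a replicate spread, a control value or a test between the genotypes.

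GABA is the main inhibitory transmitter of the forebrain. Gad1 and Gad2 encode the glutamate decarboxylases GAD67 and GAD65, which make GABA from glutamate in inhibitory neurons, whereas receptor subunits are made by the cells that receive the signal. The GABA-A receptor is a chloride channel of 5 subunits, usually alpha, beta and gamma. The alpha subunits help to set where the receptor sits and which drugs it binds, and the beta subunits form the GABA site together with alpha. Argonaute is guided to RNA by a miRNA, mostly through pairing of the seed, the bases from position 2 to 7 or 8 at the 5' end of the miRNA, with the 3' UTR or coding sequence.

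The longest seed matches found in the exonic clusters are printed first, because they are the most specific links between a miRNA and these genes that the table allows. Matches were sought for 30 of 32 miRNA families known to be abundant in brain. The mature sequences of the miRNAs, from RefSeq on GRCm38.p6, are written 5' to 3' with bases 2 to 8 in capitals.
let-7a-5p: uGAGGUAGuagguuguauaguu
miR-7a-5p: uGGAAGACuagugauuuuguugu
miR-16-5p: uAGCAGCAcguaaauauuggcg
miR-101a-3p: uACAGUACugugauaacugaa
miR-125b-5p: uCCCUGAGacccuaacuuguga
miR-153-3p: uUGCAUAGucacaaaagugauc
miR-181a-5p: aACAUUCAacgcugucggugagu
miR-186-5p: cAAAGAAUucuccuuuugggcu
miR-26a-5p: uUCAAGUAauccaggauaggcu
miR-27b-3p: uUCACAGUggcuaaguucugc
miR-128-3p: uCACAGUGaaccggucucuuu

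In the sites, each 30 bases of the gene's own strand read 5' to 3' from the GENCODE M21 transcript, capitals mark the bases that pair with miRNA bases 2 to 7 or 2 to 8, and a closing A opposite base 1 where there is one. The Gad sites are the 4 longer matches in the enzymes' clusters.
Gad1, let-7, 3' UTR, chr2:70601202-70601231: gaaaggctgttggtgggaggCTACCTCcct
Gad1, miR-101, 3' UTR, chr2:70601678-70601707: ctgtctggaaaagaattctgaTACTGTAca
Gad1, miR-7, CDS, chr2:70563817-70563846: aagaccaccgagctgatggcaTCTTCCAct
Gad2, miR-16, CDS, chr2:22629957-22629986: tgagatcgcccctgtatttgTGCTGCTAga

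The receptor sites are the 3 longer matches in named clusters, and both miR-181 matches in the Gabra4 3' UTR, since, among clusters the table names, miR-181 is the one family with matches in exonic clusters of 2 receptor genes.
Gabra4, miR-153, 3' UTR, chr5:71570280-71570309: ggatggaatgtcagtgagtgtTATGCAAtg
Gabra4, miR-181, 3' UTR, chr5:71570296-71570325: aatgtattgtagccttggatgGAATGTcag
Gabra4, miR-181, 3' UTR, chr5:71570110-71570139: ttgttcttagtctgtgtaaagGAATGTgtt
Gabrb1, miR-125, CDS, chr5:72121970-72121999: tgaccaccatcagcactcacCTCAGGGAga
Gabrb1, miR-186, CDS, chr5:71699975-71700004: gaatcttcgcagaaaagacaATTCTTTcat

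All 6 genes carried clusters, but they were spread over the genes in different ways. Exonic clusters, those in 3' UTR, CDS or 5' UTR, were found in 5 of the 6 genes, against 35.7% of 21924 protein-coding genes, and 3' UTR clusters in 4 of 6, against 21.5%. Intron clusters were found in 6 of 6, against 28.0%. These shares over all protein-coding genes include genes not expressed in brain. A cluster that touched several regions was counted once, with 3' UTR taking precedence over CDS, CDS over 5' UTR and any of them over intron, which made 13 clusters with 354 reads in 3' UTRs, 11 with 266 reads in CDS, 0 in 5' UTRs and 63 with 1419 reads in introns. Introns thus held 72.4% of the clusters of these genes (95% Wilson interval 62.2 to 80.7, counting error only), and 59.0% of the 57241 pairs of cluster and gene in the table. Gabrb1 alone, 490.9 kb long, held 29 of the 63 intron clusters, so the higher share rests largely on 1 long gene. The interval treats clusters as independent, though many share a gene.

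**Figure D1:**
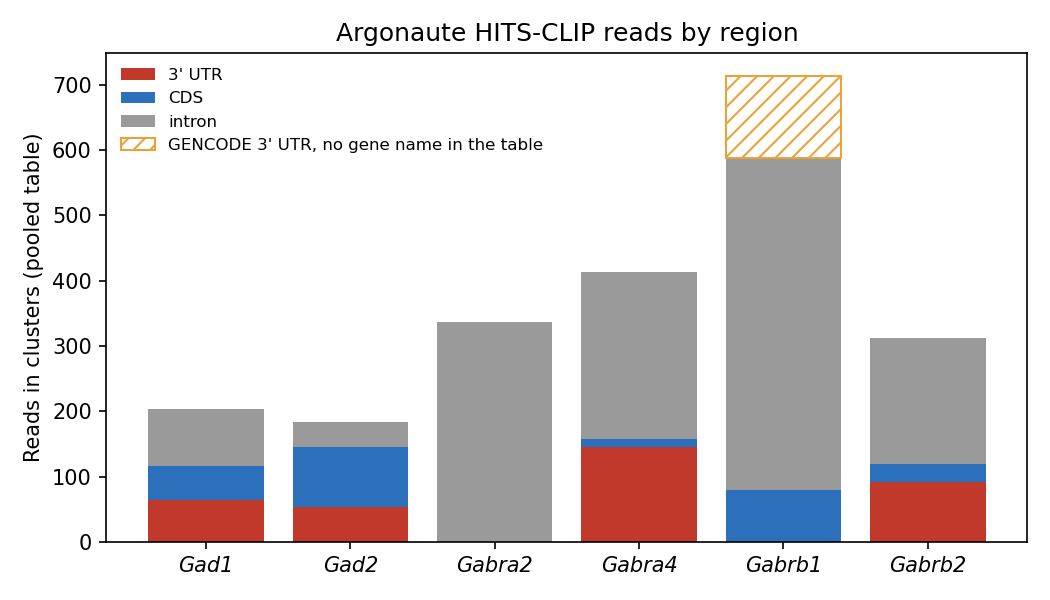
Reads in clusters (vertical axis) of the 6 genes, stacked by region, in the pooled table. Gad2 had 146 of 184 reads in exons, Gabra2 had all 337 in introns, and the hatched part is 125 reads in the GENCODE 3' UTR of Gabrb1 that the table gives no gene name.

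Depth was modest throughout. A cluster of these genes held 10 to 98 reads with a median of 18, the same median as over all clusters, and 10 is the lowest count the table lists. Only 5 of the 87 clusters held 50 reads or more, and 3 of these lay in introns. The protocol has PCR but names no molecular identifiers, and all intervals here therefore cover counting error alone. Because the tissue is whole forebrain and the table is pooled, a low count cannot be told apart from fewer cells of a type or less RNA per cell.

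Gad1 (chr2:70553072-70602014, plus strand) had 8 clusters with 204 reads. Its 3 3' UTR clusters held 29, 12 and 23 reads in the order of the transcript, its 2 CDS clusters 18 and 35, and its 3 intron clusters 26, 25 and 36. The counts thus ran from 12 to 36 reads, and the deepest cluster, in intron 14, made up 17.6% of the reads. The 3' UTR clusters began 298, 542 and 905 bases after the stop codon, and the last of them ended 64 bases before the end of the transcript. The deeper CDS cluster lay in exon 7 at 70585836 to 70585943, and the other, in exon 2 at 70563772 to 70563906, also touched the 5' UTR.

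The 3' UTR of Gad1 carried matches to 5 families, each once. The cluster of 29 reads at 70601094 to 70601261 held the 7-base let-7 match shown above, 48 bases downstream of the cluster's centre. The cluster of 12 reads held a 6-base match to miR-128. The cluster of 23 reads, 250 bases wide, held 6-base matches to miR-27 and miR-132, and the miR-101 match followed by A, which lay at its upstream edge. The exon 7 cluster held a 6-base match to miR-19. The miR-7 match in exon 2 lay within 2 bases of the centre of its cluster.

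Gad2 (chr2:22622205-22693874, plus strand) had 9 clusters with 184 reads and the largest exonic share of the 6 genes, 79.3% (95% Wilson interval 72.9 to 84.6). Its 4 CDS clusters held 16, 14, 51 and 11 reads, its 3 3' UTR clusters 14, 30 and 10, and its 2 intron clusters 25 and 13. The CDS cluster of 51 reads, in exon 6 at 22629926 to 22630033, stood above the other 8. All 4 CDS clusters of Gad2 reached into an intron, and this one lay with 86 of its 108 bases in the exon.

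The exon 6 cluster of Gad2 held an 8-base match to miR-16, with its 6-base core 10 bases upstream of the centre of the cluster's exonic part. The same bases give a 6-base match to miR-103 and miR-107, whose seed is shifted by 1 base, so the 2 families cannot be separated there. In the 3' UTR, the cluster of 30 reads at 22692271 to 22692401 held 6-base matches to miR-16, miR-22, miR-129 and miR-153, and the cluster of 10 reads another match to miR-22. The cluster of 14 reads spans the stop codon and held 6-base matches to miR-7, miR-128 and miR-132. Gad1 and Gad2 both had 6-base 3' UTR matches to miR-128 and miR-132, families matched in 13.6% and 7.52% of all 3' UTR clusters. By the table's columns, 7 of 7 exonic clusters of Gad2 and 5 of 5 of Gad1 held a match to a fixed family. So did 85.3% of all 3' UTR clusters and 79.3% of all CDS clusters of the table. The only match of the CDS cluster of 14 reads in Gad2, to miR-125, had no site in the transcript sequence.

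**Figure D2:**
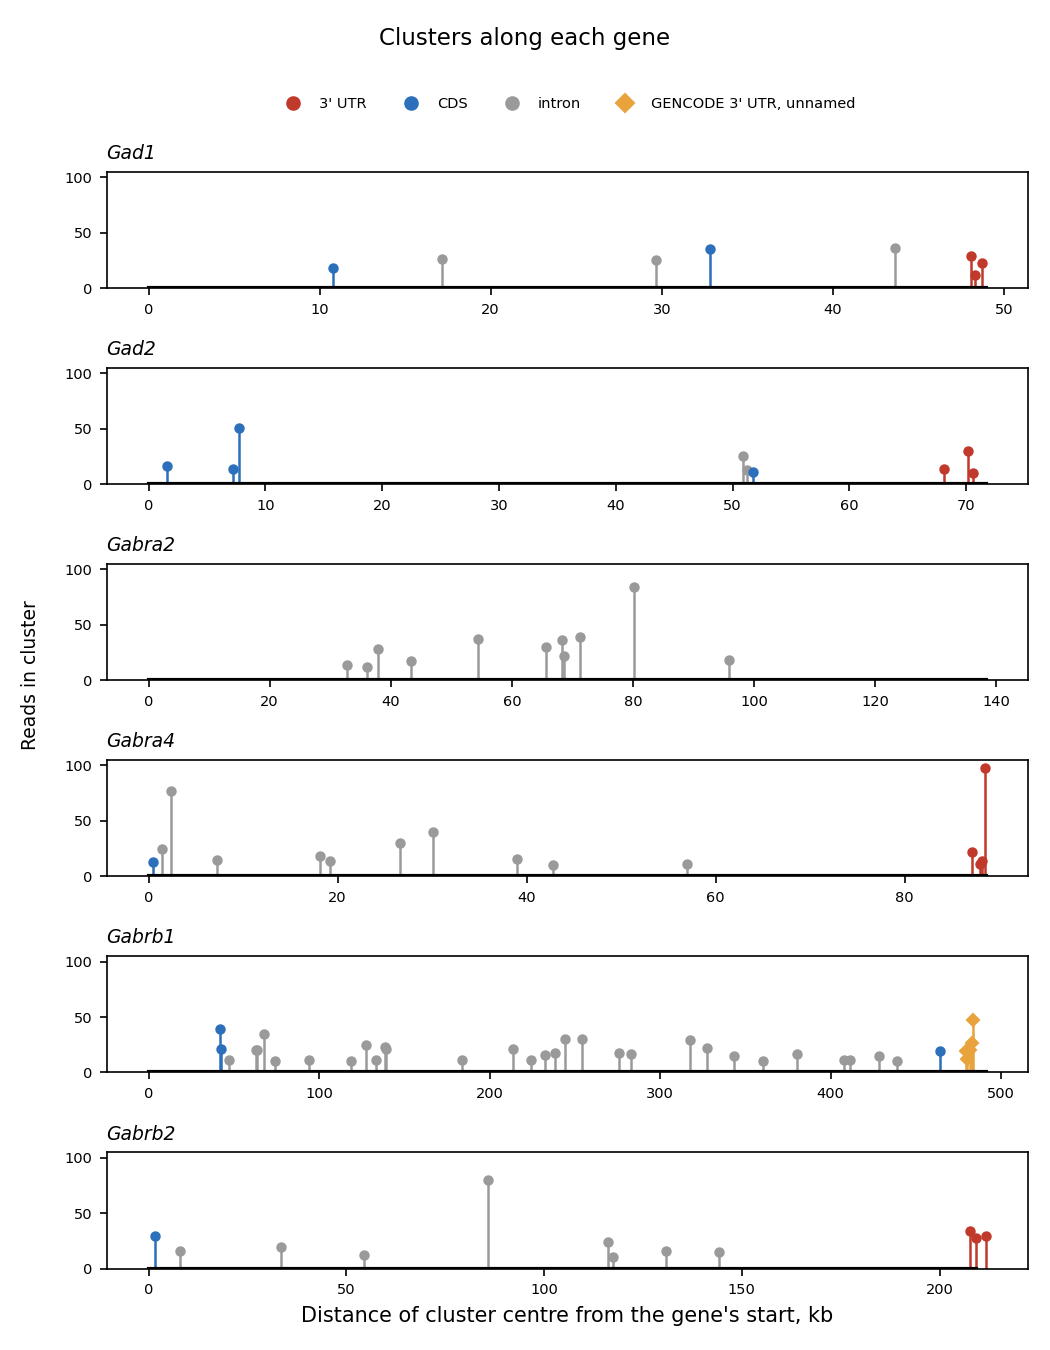
Each panel shows 1 gene, with the distance of cluster centres from the gene's start in kb on the horizontal axis, reads on the vertical axis, the black line as the GENCODE gene and colours for the region. Gabra2 has intron clusters only, Gabrb1 has the most clusters, 32, and the deepest point, 98 reads, is at the end of Gabra4.

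Gabra2 (chr5:70957597-71095849, minus strand), the alpha 2 subunit, had 11 clusters with 337 reads, and every one of them was in an intron. An intron cluster without an exonic cluster was found in 7.48% of protein-coding genes, which is 1639 of the 6139 that had an intron cluster. The clusters held 12 to 84 reads with a median of 28. The deepest, 84 reads at 71015532 to 71015678, lay 896 bases from the nearest exon, and the next held 39, 37 and 36 reads. Intron 4, with 15.4% of the intron length, held 5 of the 11 clusters and 211 reads, or 10.5 reads per kb of intron. Intron 3, with 43.8% of the length, also held 5 clusters, but 108 reads or 1.89 per kb. All 5 clusters of intron 4 carried 2 circRNA identifiers, and those of intron 3 none. No cluster of the table lay in the 4.205 kb of 3' UTR that GENCODE gives Gabra2.

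Gabra4, the alpha 4 subunit that is common in receptors outside synapses, lies at chr5:71569749-71658308 (minus strand) and had 15 clusters with 414 reads. Its 4 3' UTR clusters held 22, 11, 14 and 98 reads in the order of the transcript, its CDS cluster 13, and its 10 intron clusters 10 to 77 with a median of 17. The cluster of 98 reads, the deepest of all 87, lay at 71569766 to 71569874 and ended 17 bases before the end of the transcript. It alone gave 98 of the 158 exonic reads of Gabra4. An intron cluster of 77 reads at 71655857 to 71655910 was the narrowest of the 87, with 54 bases, and overlaps the retained-intron transcript Gabra4-204, as does one of 25 reads at 71656838 to 71656971.

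The deepest Gabra4 cluster matched none of the 32 fixed families, and 21 of the 1281 miRNA columns had a match in it. The 3' UTR cluster of 22 reads matched none either. The matches of Gabra4 sat in its 2 shallow 3' UTR clusters: miR-181 in that of 14 reads, and miR-153, miR-181 and the family of miR-221 and miR-222 in that of 11 reads. The miR-153 match is followed by A, and the miR-181 matches are 6 bases long and 4 and 20.5 bases from the cluster centres. So 2 of 5 exonic clusters of Gabra4 had a match to a fixed family, beside the shares of 85.3% and 79.3% given above.

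Gabrb1, the beta 1 subunit, is the longest of the 6 genes, 490.9 kb at chr5:71658113-72149037 (plus strand), head to head with Gabra4. It had the most clusters, 32, and the most reads, 588. Introns held 29 of these clusters, with 10 to 35 reads and a median of 17, so that no intron site stood out. Introns 3 and 4 held 12 clusters each and intron 5 the other 5. The 3 CDS clusters held 39 reads at 71699976 to 71700119, 21 at 71700288 to 71700413 and 19 at 72121993 to 72122102, in exons 1, 2 and 8. The 39-read cluster held the 7-base miR-186 match shown above and a 6-base miR-181 match 19 bases upstream of the exonic centre. The 19-read cluster held the 8-base miR-125 match, which crosses its upstream edge.

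The table named 0 3' UTR clusters for Gabrb1, but this depends on the gene models behind its names. The GENCODE M21 transcript of Gabrb1 has a 3' UTR of 12.2 kb, and 5 clusters with 125 reads lie inside it on the same strand without any gene name in the table. They held 19, 12, 20, 27 and 47 reads and began 899 to 4458 bases after the stop codon. With them Gabrb1 had 8 exonic clusters with 204 reads, or 14.7 exonic reads per kb in place of 5.71. The deepest, 47 reads at 72141267 to 72141447, held 2 matches to miR-26, and the cluster of 20 reads held overlapping matches to miR-27 and miR-128, which share bases.
Gabrb1, miR-26, unnamed cluster, chr5:72141354-72141383: gggttgtgtatggtggaagcTACTTGAgtc
Gabrb1, miR-27, unnamed cluster, chr5:72139853-72139882: tctgcacctttttcttgacaACTGTGActg

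Gabrb2, the beta 2 subunit found in the most common receptor type of the brain, lies at chr11:42419757-42629028 (plus strand) and had 12 clusters with 312 reads. Its 3' UTR clusters were alike in depth, with 34, 28 and 29 reads, and the CDS cluster, in exon 2 at 42421310 to 42421409, also held 29. Of its 8 intron clusters, 7 held 10 to 24 reads and 1, in intron 5 at 42505533 to 42505655, held 80. That cluster made up 25.6% of the reads of the gene and contained a miR-124 and a miR-186 match. The 34-read cluster at 42627521 to 42627630 held 6-base matches to miR-9 and miR-129. The 29-read 3' UTR cluster at 42631345 to 42631464 lies 2317 bases beyond the last exon of the GENCODE transcript, and its columns give miR-9, miR-138 and the family of miR-148 and miR-152. The 28-read 3' UTR cluster and the CDS cluster matched no fixed family.

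Levels were compared between genes as reads of exonic clusters, as the table names them, per kb of merged GENCODE exons. The order depends on this length. Merged exons of Gad1 span 7.639 kb, against 3355 bases in its longest protein-coding transcript, and those of Gad2 5.876 kb against 5744 bases. Per base of that transcript Gad1 would lie above Gad2. Gabra4 had 26.0 exonic reads per kb (95% Poisson interval 22.1 to 30.4), Gad2 24.8 (20.98 to 29.2), Gabrb2 18.9 (15.6 to 22.6), Gad1 15.3 (12.7 to 18.4) and Gabrb1 5.71 (4.52 to 7.12), and Gabra2 had no exonic cluster. The intervals of Gabra4, Gad2 and Gabrb2 all overlap each other, as do those of Gabrb2 and Gad1, and that of Gabrb1 lies below the other 4. The median over 7837 protein-coding genes with an exonic cluster was 9.80, so 4 of the 6 genes lay above it. The Gabrb2 value includes the 29 reads beyond its GENCODE transcript. With only clusters that touch exons of the longest protein-coding GENCODE transcript, Gabrb2 had 14.3 and Gabrb1 14.7, both below Gad1 and close to it. The other 4 genes kept their values. The Gabra4 clusters of 77 and 25 reads that overlap Gabra4-204 stayed intron clusters there. Exons of that retained-intron transcript do count in the merged exon length. The first place of Gabra4 rests on 1 cluster: without each gene's deepest exonic cluster, Gabra4 fell to 9.86, below Gad2 with 16.2, Gabrb2 with 13.5 and Gad1 with 10.7.

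Intron levels followed another order. Gabra4 had 3.10 intron reads per kb of intron (2.74 to 3.51), Gabra2 2.58 (2.31 to 2.87), Gad1 2.11 (1.69 to 2.60), Gabrb1 1.07 (0.976 to 1.16), Gabrb2 0.946 (0.817 to 1.09) and Gad2 0.578 (0.409 to 0.793). The median over 6139 protein-coding genes with an intron cluster was 1.09. The Gabra4 value includes clusters of 77 and 25 reads that overlap exons of Gabra4-204, which are not part of the intron length. The intervals of Gabra4, Gabra2 and Gad1 overlap from each to the next, as do those of Gabrb1 and Gabrb2, and Gad2 lies below the other 5. With all clusters counted, Gabra4 was thus first on both scales, whereas Gad2, second in exons, was last in introns. The intron places of Gabra4 and Gabra2 above Gad1 rest on intron clusters with a circRNA identifier, which Gad1 lacks. Without such clusters Gabra4 kept 312 of its 414 reads over all regions and Gabra2 126 of 337. All reads lost in these genes were intron reads. Per kb of the same intron length, both genes then lay below Gad1. The exonic place of Gad2 rests in part on shallow clusters, since with clusters of at least 20 reads it had 13.8 reads per kb, below Gabra4 with 19.7 and Gabrb2 with 18.9. By the table's names, exonic reads per kb exceeded intron reads per kb 43.0-fold in Gad2, 19.9-fold in Gabrb2, 8.37-fold in Gabra4, 7.27-fold in Gad1 and 5.35-fold in Gabrb1. The Gabrb2 fold includes 29 reads beyond its GENCODE exons, and that of Gabrb1 leaves out 125 reads in its GENCODE 3' UTR. That of Gabra4 counts the 77 and 25 reads over Gabra4-204 as intron reads. By exons of the longest protein-coding GENCODE transcript the exonic values were 14.3 for Gabrb2 and 14.7 for Gabrb1. The last place of Gabrb1 thus rests on the table's names.

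**Figure D3:**
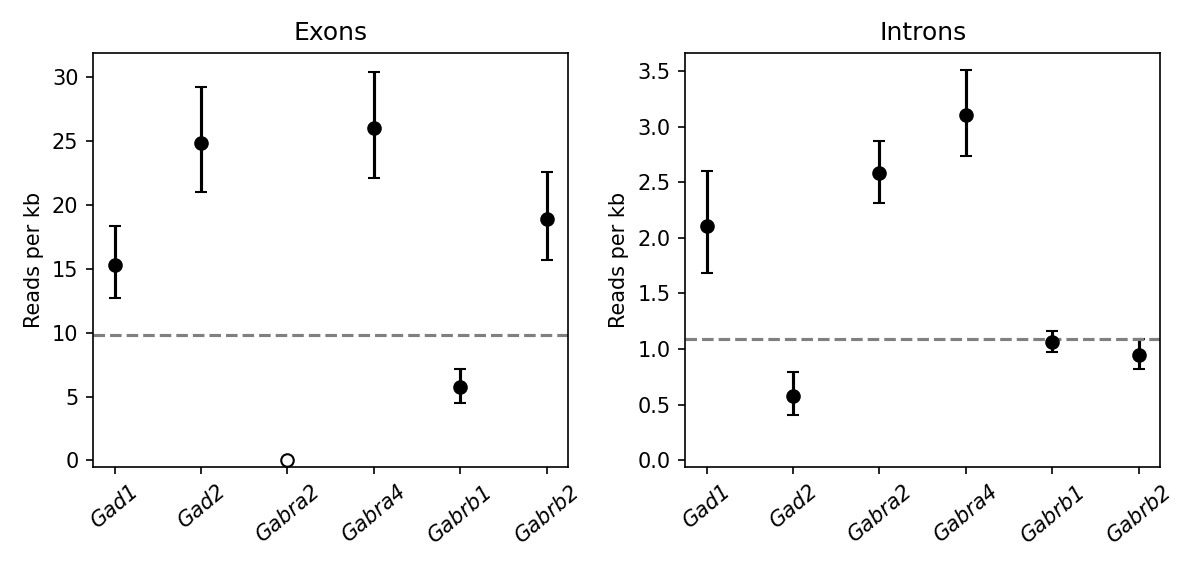
Reads per kb of exon (left) and of intron (right) for each gene, with 95% Poisson intervals for counting error, with Gabrb2 including 29 reads beyond its GENCODE exons, and dashed lines at the medians of protein-coding genes with such a cluster, 9.80 and 1.09. The open circle marks Gabra2, which had no exonic cluster, and the scales of the panels differ.

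The 63 intron clusters lay mostly deep inside introns. Their distance to the nearest exon of the transcript was 200 to 83956 bases with a median of 17554, and 4 of them, 2 in Gabra4 and 1 each in Gad1 and Gad2, lay within 500 bases. In Gabra4, intron 8 made up 62.6% of the intron length and held 3 of 10 clusters, with 0.717 reads per kb, against 7.88 in intron 2, 12.5 in intron 5 and 7.42 in intron 7. Gabrb1 was more even, at 1.23, 1.48 and 0.816 reads per kb in introns 3, 4 and 5. A circRNA identifier was attached to 5 clusters of Gabra2, 4 of Gabra4 and 2 of Gabrb1, and to none of Gad1, Gad2 or Gabrb2.

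Across the 24 exonic clusters, 22 of the 32 fixed families had a match, in 36 pairs of cluster and family, and 18 clusters had at least 1. In 3' UTRs 10 of 13 clusters had one, against 85.3% of the 9284 3' UTR clusters of the table, and in CDS 8 of 11, against 79.3% of 12960. In introns 48 of 63 had one, against 74.1% of 32704. Matches of 6 bases are thus common in any cluster. Of 30 sites that could be read in transcript sequence, 7 were longer than 6 bases, and 2 of these, miR-16 in Gad2 and miR-125 in Gabrb1, were 8 bases long. Among clusters the table names, no family had matches in exonic clusters of more than 2 of the 6 genes, and 9 had them in 2. These 9 include miR-125, whose Gad2 match had no site in the transcript sequence. By the GENCODE transcripts, which add the unnamed Gabrb1 clusters, miR-9, miR-27 and miR-128 had them in 3 genes each.

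**Figure D4:**
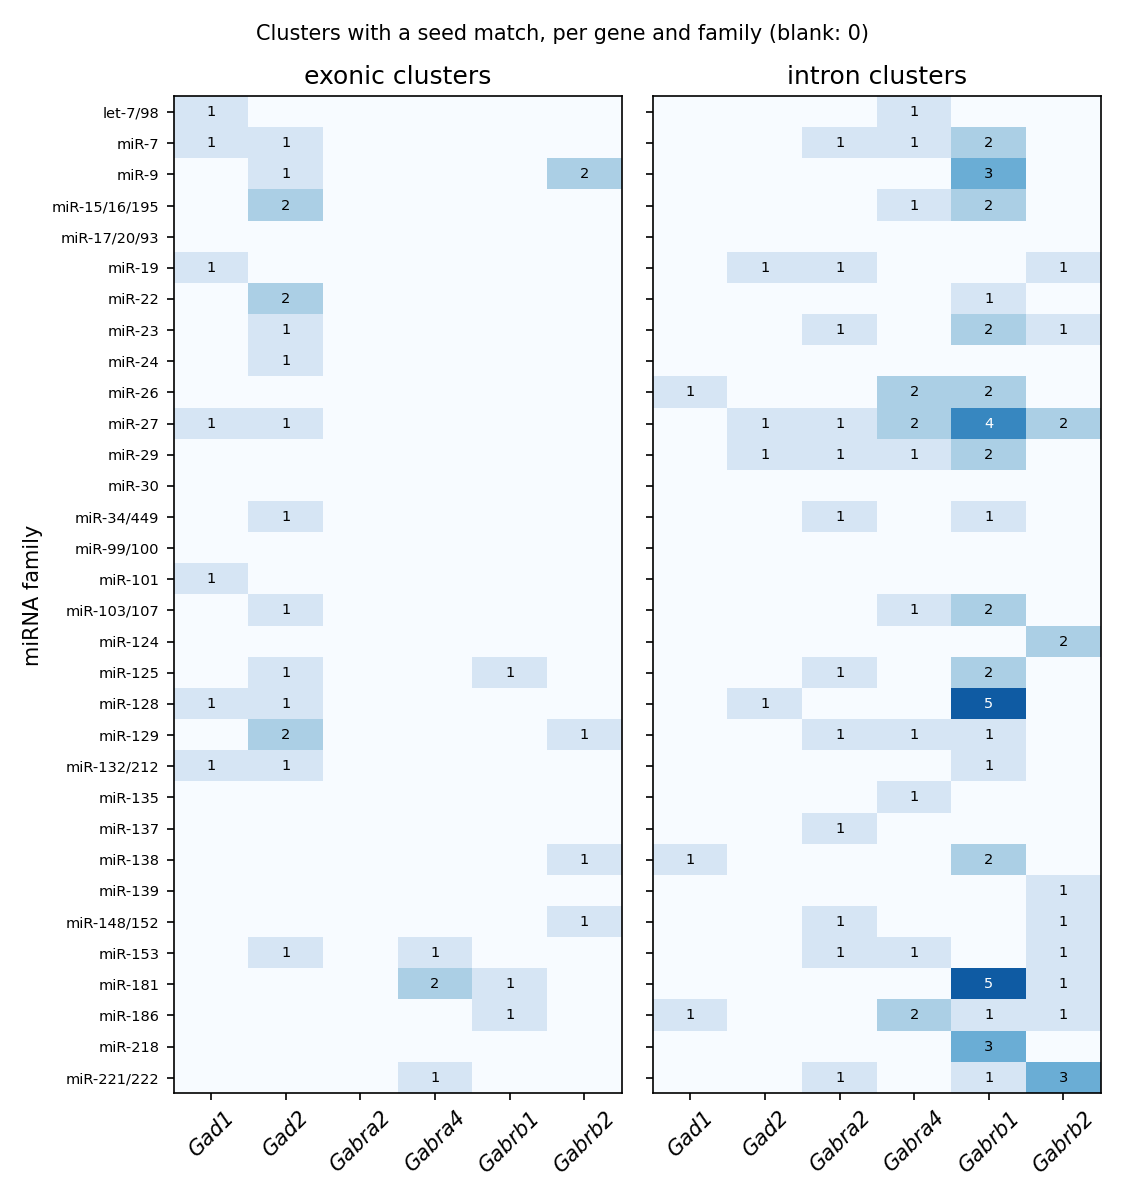
Number of clusters with a match for each of 32 miRNA families (rows) in each gene (columns), in exonic clusters on the left and intron clusters on the right, with empty cells at 0. Exonic matches are most numerous in Gad2, with 17 pairs of cluster and family, and intron matches in Gabrb1, with 42 pairs over 29 clusters.

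The most frequent families in the exonic clusters were miR-9, miR-129 and miR-181, with 3 clusters each. For miR-9 these were 2 3' UTR clusters of Gabrb2 and 1 CDS cluster of Gad2, and for miR-181 2 3' UTR clusters of Gabra4 and 1 CDS cluster of Gabrb1. In 3' UTRs miR-181 matched 2 of 13 clusters, against 7.37% of all 3' UTR clusters, and miR-128 matched 2 of 13, against 13.6%. The miR-124 and miR-29 families matched none of the 13, against 10.3% and 8.65%. No test was made on these counts. In introns miR-27 matched 10 of 63 clusters and miR-128 matched 6, against 10.4% and 11.5% of all intron clusters, and 5 of the 6 miR-128 clusters were in Gabrb1.

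The other genes of the pathway were taken from a list of 30. An exonic cluster was found in 19 of them and a 3' UTR cluster in 15, against 35.7% and 21.5% of all protein-coding genes. Their median was 43 exonic reads, against 118.5 over the 6 genes and 0 over all protein-coding genes. Among the 15 GABA-A subunits outside the 6 genes, 6 had an exonic cluster, which is near the share of 35.7% over all protein-coding genes. Gabra3, the alpha 3 subunit, had 116 exonic reads, Gabrg1 had 13 and Gabrd, the delta subunit, had 11. Gabrg3, Gabrr3 and Gabra5 had intron reads only, as Gabra2 did, with 738, 52 and 13. Gabra6, a cerebellar subunit, and Gabre, Gabrp, Gabrq, Gabrr1 and Gabrr2 had no cluster.

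Uptake and breakdown were represented too. Slc6a11, the astrocytic GABA transporter GAT3, had 65 exonic reads, all in CDS. Slc32a1, which loads GABA into vesicles, had 45, and Slc6a12 and Slc6a13 had no cluster. Abat and Aldh5a1, which break GABA down, had 118 and 109. The GABA-B receptor genes Gabbr1 and Gabbr2 had 362 and 199 exonic reads, and Nlgn2, an adhesion protein of inhibitory synapses, had 264, the most among the 6 anchoring and trafficking genes.

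**Figure D5:**
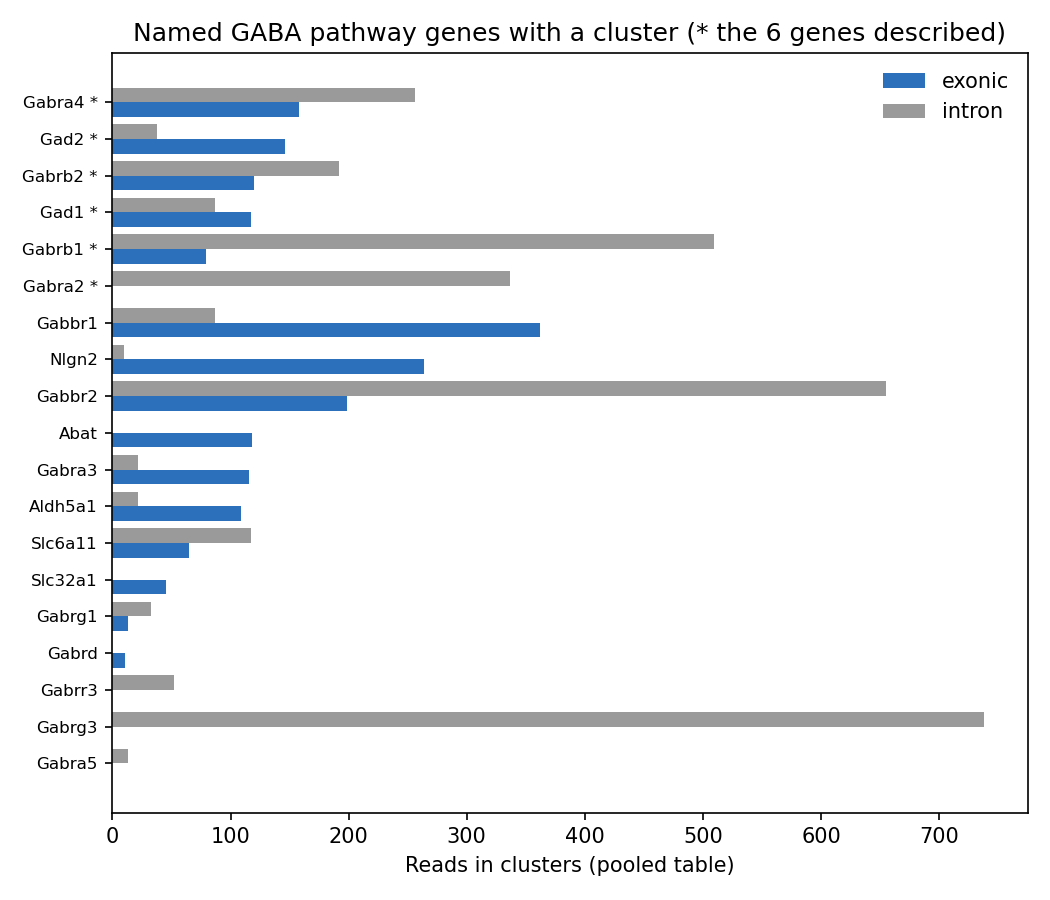
Exonic and intron reads of the 6 genes (marked with an asterisk) and of the genes named in the text from the pathway list that had a cluster. Gabra2 and Gabrg3 have intron reads without exonic ones, and Gabbr1 has the most exonic reads of the genes shown, 362.

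The labels give the cell type as Camk2a neurons, and Gad1 and Gad2 are markers of inhibitory neurons. An exonic cluster was found in 35.7% of all protein-coding genes, beside which the following counts stand. Of 8 excitatory markers, 6 had an exonic cluster, with Camk2a at 618 reads and Emx1 and Fezf2 at 0. Of 10 other markers of GABA neurons, 3 had one, Lhx6 with 60 reads, Slc32a1 with 45 and Calb2 with 43, while Sst, Vip, Npy, Dlx1, Dlx2 and Dlx5 had no cluster and Pvalb had 11 intron reads only. All 6 astrocyte markers had one, with 58 to 1105 reads, 5 of 6 oligodendrocyte markers with up to 298, and 3 of 6 microglial markers with up to 33. The part of these cells in the reads of Gad1, Gad2 and the receptor genes was not tested, since the control libraries cannot be separated.

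By reads in the 4 regions on a log2(reads + 1) scale, the protein-coding genes nearest to each of the 6 were named as a description. Nearest to Gad1 were Pja2, Rabep1 and Phlpp2, at distances of 0.22 to 0.25, and nearest to Gad2 were Fam81a, Psmd13 and Eml5, at 0.25 to 0.33. Nearest to Gabra4 were Ccdc85a, Magi1 and Nol4l, at 0.43 to 0.79, and nearest to Gabrb2 were Zbtb16, Nbeal1 and Scaf8, at 0.38 to 0.43. For Gabrb1 they were Chrm3, Nedd4l and Epha6, at 0.08 to 0.15, which also had CDS and intron reads and 0 in the 3' UTR. This likeness rests on the table's names, which leave out the 125 reads in the GENCODE 3' UTR of Gabrb1. For Gabra2 they were 2010111I01Rik, Zfp804a and Chchd7, with 337 to 343 intron reads and no exonic cluster. None of the 18 is on the pathway list.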

How the data were processed

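HITS-CLIP reads of 8 libraries were aligned with BWA to mm10, per the submitters' processing notes. The sources used here do not say how clusters were called, which libraries entered them, or whether controls or PCR duplicates were removed. The authors deposited 1 whole-number read count per cluster, without normalization, and, per the file headers, other columns with the number of seed matches for each of 1281 miRNAs. The members and lists were chosen with earlier results of these data known.

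Gene names were matched exactly, and 9806 of 9962 names in the table are in GENCODE M21. Positions are 1-based on mm10, and exon and intron numbers follow the longest protein-coding GENCODE transcript. Exon length is that of merged exons of all transcripts, and intron length is the rest of the gene. Seed matches were read from the deposited columns. A count in transcript sequence of the 6-base complement of miRNA positions 2 to 7 gave the same number in 660 of 660 pairs of cluster and family lying within exons. In most of these pairs neither count found a match. RefSeq sequences were matched for 30 of 32 families, without miR-23b-3p and miR-124-3p. Of 36 pairs, 6 have no site in transcript sequence. Named were all 6 genes, their exonic clusters of at least 20 reads or with a fixed seed, the leading genes of each list group and the 3 nearest genes by Euclidean distance. Python 3.11.15, pandas 2.3.3 and SciPy 1.17.1 were used, and scripts were tested on simulated data. Some genes of the pathway list are counted in its totals but not reported here by name. The planned comparison of Flag-Ago2 with control libraries could not be made, since the table does not separate them.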

Additional observations from a re-analysis of the deposited data

Results flagged for a closer look

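Signal lay in clusters near these genes that the table does not name for them in a sense region. The 5 unnamed clusters in the GENCODE 3' UTR of Gabrb1 held 125 reads together. Another unnamed cluster of 30 reads lay on the plus strand 3.77 kb beyond the end of Gabrb1, and 1 of 16 reads on the minus strand 4.02 kb beyond the end of Gabra2, with matches to miR-26 and to miR-132 and miR-212. A cluster of 15 reads lay on the minus strand 0.678 kb upstream of Gabra4, where Gabrb1 runs on the other strand. The table names Gabra4 as antisense for a cluster of 11 reads on the plus strand at 71650964 to 71651118, opposite a 15-read intron cluster of Gabra4 at 71650935 to 71651155. No background in control mice could be set beside these counts.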

How the results depend on the processing

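No paired analysis was possible because the table holds no column for a library, and leaving out libraries was not possible for the same reason. Counting every region named gave 3 5' UTR clusters in place of 0, and otherwise this, leaving out clusters with a circRNA identifier and leaving out clusters that name another gene kept the totals over the 6 genes within 1.5 times of those reported. Per gene, leaving out circRNA identifiers took Gabra2 from 11 to 6 clusters and from 337 to 126 reads. With clusters of at least 20 reads only, 41 of 87 clusters were left, 8 of 13 in 3' UTRs, 5 of 11 in CDS and 28 of 63 in introns, and 18 of 36 seed pairs, since the median cluster has 18 reads. Asking for a match to bases 2 to 8 left 4 seed pairs, among those with transcript sequence. The GENCODE transcript in place of the table's names, an alternative chosen after seeing the data, gave 17 3' UTR clusters and 40 seed pairs. The number of genes above the median exonic reads per kb was 4 as reported, without the deepest exonic clusters and with clusters of at least 20 reads. Without its deepest exonic cluster Gabra4, at 9.86, lay only just above the reported median of 9.80. With its unnamed clusters, Gabrb1 at 14.7 would lie above the reported median of 9.80 too. Per kb of 3' UTR, the 3' UTR reads were 74.4 for Gabra4, 52.5 for Gad1, 42.6 for Gabrb2 and 15.3 for Gad2, another order than per kb of exon. Of these, Gabrb2 had 29.0 by reads inside its GENCODE 3' UTR. Sites under 10 reads are not listed, so a missing cluster does not show missing binding.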
